A study of Takifugu obscurus with 9 samples.

Results

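Kidney transcripts of the obscure puffer (Takifugu obscurus) were compared between 48 h after a challenge with poly(I:C) and 0 h. The comparison uses 6 of the 9 libraries of the series: 3 from 48 h after poly(I:C), and 3 titled poly(I:C) 0 h, called controls here. The other 3 libraries, from 12 h after poly(I:C), entered the estimate of the spread and are given beside single features. Fish were 3 months old, the tissue was kidney, and total RNA was sequenced. The labels give no dose or route and do not say whether the 0 h fish received a mock injection, whether fish were pooled, or whether the 3 libraries of a group are separate fish, so p-values here reflect the spread between libraries alone, and that spread may be technical. No control was taken at 48 h, so the treatment and the time since the start cannot be told apart.

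Poly(I:C) is a synthetic mimic of viral double-stranded RNA, which cells sense through receptors such as Toll-like receptor 3 and the helicase MDA5. The receptors switch on type I interferon, which in turn raises a large set of antiviral genes, and feedback inhibitors such as SOCS1 later damp the signal. The fish kidney filters blood and also forms it, so its RNA comes from nephrons, from red and white blood cells and their precursors, and from the interrenal steroid-producing cells that lie in the same organ.

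The deposited table holds 46444 assembled transcript clusters, called features here, in TPM, a length-corrected measure of abundance in which every library has about the same total. A feature was tested where it reached 1 TPM in at least 3 of the 9 libraries, which left 45473, and 20873 of these were matched by the authors to a fish protein. From the spacing of low values, each library had roughly 24900000 to 32300000 reads on features of at least 300 nucleotides. Kidney and blood-forming markers were both present: 37 of 44 proximal tubule markers and 16 of 19 podocyte and glomerular markers were measured, as were 23 of 29 red cell markers and 14 of 16 progenitor markers. No sequences are given, since the table holds none.

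The libraries were not evenly spaced within their groups. Control libraries 1 and 2 were nearly alike, with a Pearson correlation of 0.985 over features of at least 10 TPM and squared differences 1.52 times the estimated sampling noise. The other pairs within a group differed by 5.07 to 15.8 times that noise. Control library 3 correlated with the 48 h libraries at 0.919 to 0.927 and with control libraries 1 and 2 at 0.857 and 0.864. For 52.3% of the features it lay within the range of the 48 h libraries, against 40.2% and 40.3% for control libraries 1 and 2. Among the 12 h libraries, the third lay between the other two for 97.2% of the 1302 features that differed over 2-fold between those (38.9% to 73.2% for the 48 h and 0 h libraries), so it adds little independent spread. The 48 h values also lay a little above the 0 h values in general: the median log2 difference was 0.13 over all features and 0.17 over the 11338 gene symbols with 1 feature each. Values after scaling the libraries to a common median are therefore given beside those as deposited.

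At 48 h, 5 of the 45473 features passed the test (0.011%), 4 higher (0.0088%) and 1 lower (0.0022%), at a Benjamini-Hochberg adjusted p under 0.05 from limma on log2(TPM + 1). A septin-1-like transcript, an uncharacterized transcript, a minor feature matching ribosomal protein S15 and a feature with no match rose. An interleukin-8-like transcript fell. An unadjusted p under 0.05 was reached by 5038 features (11.1%).

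Septins are filament-forming GTPases that organise the cell cortex and division site. The septin-1-like feature (TRINITY_DN17335_c0_g1, 429 nucleotides) had 85.6, 86.9 and 177 TPM in the 48 h libraries, against 0, 1.11 and 2.40 TPM in the 0 h libraries. The groups do not overlap, and the 12 h libraries were higher still, at 320, 725 and 527 TPM. It rose by 5.84 on the log2(TPM + 1) scale at 48 h against 0 h (SE 0.47, limma adjusted p = 0.00789), and its difference from 12 h did not pass (log2 fold change -2.17, limma adjusted p = 0.0525).

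The uncharacterized feature (LOC101063328, TRINITY_DN23546_c0_g1) had 35.3, 67.6 and 66.6 TPM at 48 h, against 0.72, 2.44 and 1.27 TPM at 0 h. Every 48 h library was far above every 0 h library. Its log2 fold change was 4.54 (SE 0.39, limma adjusted p = 0.00789), and it stood at 88.3, 228 and 157 TPM at 12 h. With the second feature of this description added, it averaged 61.2 ± 15.4 TPM at 48 h and 7.04 ± 4.98 TPM at 0 h (SD, n = 3 each).

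Interleukin-8 (CXCL8) is the chemokine that draws neutrophils to infected tissue. The interleukin-8-like feature (TRINITY_DN16546_c0_g1) had 14.1, 18.4 and 15.5 TPM at 48 h, against 68.6, 56.6 and 73.5 TPM at 0 h. All 3 control libraries, the third included, were above all 48 h libraries. It fell by 1.98 on the log2 scale (SE 0.17, limma adjusted p = 0.00789). The 12 h libraries lay between, at 36.8, 49.7 and 44.2 TPM, and the 48 h libraries were lower than these too (log2 fold change -1.39, limma adjusted p = 0.0105).

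Ribosomal protein S15 is a subunit of the small ribosomal particle. The S15 feature that passed (TRINITY_DN22379_c1_g2) had 67.4, 33.2 and 61.7 TPM at 48 h, against 4.96, 5.22 and 2.52 TPM at 0 h, a log2 fold change of 3.38 (SE 0.32, limma adjusted p = 0.0124). The groups do not overlap, and the 12 h libraries held 77.0, 45.2 and 51.5 TPM. A second, far more abundant feature has the same description, and their sum averaged 839 ± 74.2 TPM at 48 h and 859 ± 44.2 TPM at 0 h (SD, n = 3 each), so the split between the 2 features differed while the total did not differ beyond its spread.

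The feature with no match (TRINITY_DN23074_c0_g4) had 9.86, 4.95 and 7.51 TPM at 48 h, against 0, 0.55 and 0 TPM at 0 h. The control libraries were at or near 0, and the 12 h libraries were at 38.0, 39.97 and 33.9 TPM. It rose by 2.82 at 48 h against 0 h (SE 0.27, limma adjusted p = 0.0124) and was lower at 48 h than at 12 h (log2 fold change -2.22, limma adjusted p = 0.0102). The plot of the called features shows that the 4 raised features stood above 0 h at both times.

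**Figure D1:**
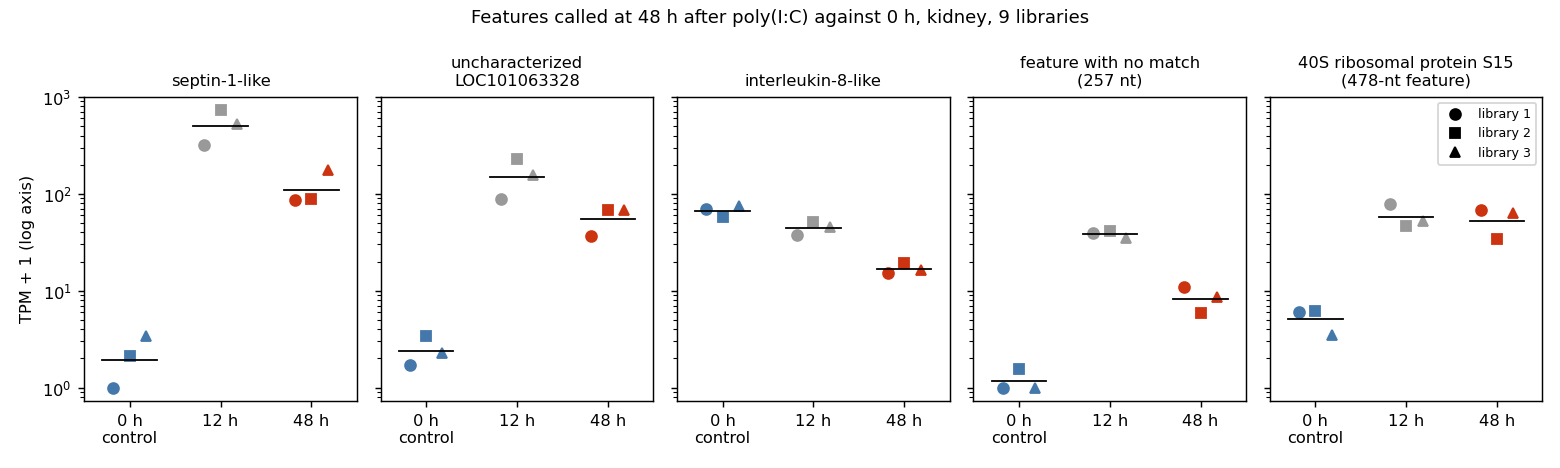
TPM + 1 on a log axis of the 5 called features in the 9 libraries at 0 h (control), 12 h and 48 h after poly(I:C). Points are libraries (shape gives the library number), and lines are means on the log scale. The septin-1-like feature lies at 85.6 to 177 TPM at 48 h and at 0 to 2.40 TPM at 0 h, and the interleukin-8-like feature is the one that is lower at 48 h.

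These calls rest on few libraries. Leaving out 48 h library 3 left 0 calls (2925 features then had an unadjusted p under 0.05), leaving out 48 h library 1 left 2, leaving out control library 1 left 1, and leaving out control library 3 gave 78. With control libraries 1 and 2 averaged and 12 h library 3 left out, limma made 0 calls (2081 features with an unadjusted p under 0.05), and the adjusted p of the 5 features was 0.0762 to 0.129.

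Beyond the calls, the 3 libraries of 48 h lay all above the 3 of 0 h for 12.3% of the features and all below for 3.95%. Taking 1 feature per symbol, as in the lists below, the shares were 21.2% above and 2.94% below as deposited, and 8.32% and 7.96% after median scaling. No member of any of the 35 lists passed the test, so the counts below describe values and are no calls.

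Most cell cycle genes had higher means at 48 h than at 0 h. Of 59 measured cell cycle genes, 57 had a higher mean at 48 h (69.8% of all symbols did), 29 had all 48 h libraries above all 0 h libraries and 0 had them below. After median scaling the counts were 18 above and 1 below. With values as deposited, an unadjusted p under 0.05 was reached by 46 of the 59, against 16.2% of all symbols. The same count was 25 of 49 for DNA replication and histone genes, 16 of 36 for the proteasome, 9 of 32 for interferon-stimulated genes and 0 of 60 for cytosolic ribosomal proteins. The cell cycle median log2 difference was 0.91 (0.72 after median scaling), or 1.29 against control libraries 1 and 2 and 0.13 against control library 3. Over all symbols the median was 0.22 against control libraries 1 and 2 and 0.10 against control library 3. Against control library 3 the list was thus close to all symbols.

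Cyclin B1, the partner of the kinase that starts mitosis, had 193, 210 and 191 TPM at 48 h, against 73.7, 70.6 and 154 TPM at 0 h (log2 fold change 1.08, SE 0.31, limma adjusted p = 0.409). KIF20A, a kinesin motor of cytokinesis, had 34.4, 32.2 and 36.7 TPM at 48 h, against 10.8, 10.8 and 20.3 TPM at 0 h (log2 fold change 1.30, SE 0.31, limma adjusted p = 0.403). In both, the 48 h libraries lay close together and control library 3 lay between them and the other 2 controls. Anillin, a scaffold of the contractile ring, had 54.8, 59.7 and 58.1 TPM at 48 h, against 22.7, 20.7 and 35.4 TPM at 0 h. KIF2C, a kinesin that takes microtubules apart at centromeres, averaged 27.0 ± 1.90 TPM at 48 h and 13.2 ± 4.998 TPM at 0 h (SD, n = 3 each). The mean level of the list at 12 h was 4.31, 3.39 and 3.99 on the log2(TPM + 1) scale, against 4.77 to 4.84 at 48 h.

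DNA replication and histone genes were likewise mostly higher in mean at 48 h. Of 49 measured, 48 had a higher mean at 48 h, and 21 had all 48 h libraries above all 0 h libraries, or 5 after median scaling. The median log2 difference was 0.60 (0.90 against control libraries 1 and 2, 0.08 against control library 3). Over all symbols the last 2 medians were 0.22 and 0.10. The replication protein A subunit RPA3, which coats single-stranded DNA, had 42.7, 37.1 and 36.1 TPM at 48 h, against 19.4, 17.97 and 32.0 TPM at 0 h. The primase subunit PRIM2 averaged 37.8 ± 5.998 TPM at 48 h and 21.4 ± 6.52 TPM at 0 h (SD, n = 3 each), and the clamp loader subunit RFC3 averaged 37.0 ± 5.04 TPM at 48 h, with 23.3 ± 4.44 TPM in the 0 h libraries (SD, n = 3 each).

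The proteasome, which breaks down ubiquitin-tagged proteins, had small differences that were even across libraries. Of 36 measured subunits and factors, 24 had all 48 h libraries above all 0 h libraries and 0 below, with a median log2 difference of 0.29 (0.34 against control libraries 1 and 2, 0.20 against control library 3). After median scaling 6 were above and 1 below, and the median was 0.10. The catalytic subunit PSMB5 had 120, 95.5 and 103 TPM at 48 h, against 65.6, 69.5 and 79.5 TPM at 0 h (log2 fold change 0.56, SE 0.15, limma adjusted p = 0.409). The ubiquitin receptor ADRM1 had 63.4, 50.01 and 61.9 TPM at 48 h, against 34.0, 38.1 and 38.8 TPM at 0 h. Neither gene's groups overlap, and at 12 h the list's mean level was higher than at 48 h, at 6.94 to 7.01 against 6.47 to 6.58 on the log2(TPM + 1) scale.

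Lysosomal genes had 18 of 42 members with all 48 h libraries above all 0 h libraries and 2 below, or 11 and 6 after median scaling. Cathepsin D, a lysosomal aspartic protease, had 308, 366 and 289 TPM at 48 h, against 150, 136 and 267 TPM at 0 h. CD63, a membrane protein of late endosomes and lysosomes, had 283, 283 and 298 TPM at 48 h, against 164, 173 and 227 TPM at 0 h. Beta-galactosidase (GLB1) averaged 51.9 ± 6.41 TPM at 48 h and 33.6 ± 0.942 TPM at 0 h (SD, n = 3 each, log2 fold change 0.61, limma adjusted p = 0.409). In these 3 genes no control library reached the lowest 48 h library.

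Oxidative phosphorylation genes had 24 of 63 members above and 0 below as deposited, but 0 above and 1 below after median scaling, when the list's median log2 difference was 0.01. Cytosolic ribosomal proteins had 0 of 60 above and 2 below as deposited, against 21.2% and 2.94% of all symbols, with a median log2 difference of -0.00. After median scaling 18 were below, and the median was -0.19. For both lists the count depends on the scaling. ATP synthase subunit gamma had 406, 442 and 387 TPM at 48 h, against 338, 361 and 316 TPM at 0 h. The laminin receptor homologue RPSA, a small-subunit protein, had 2385, 1968 and 1860 TPM at 48 h, against 2391, 2359 and 2343 TPM at 0 h, so its groups overlap.

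**Figure D2:**
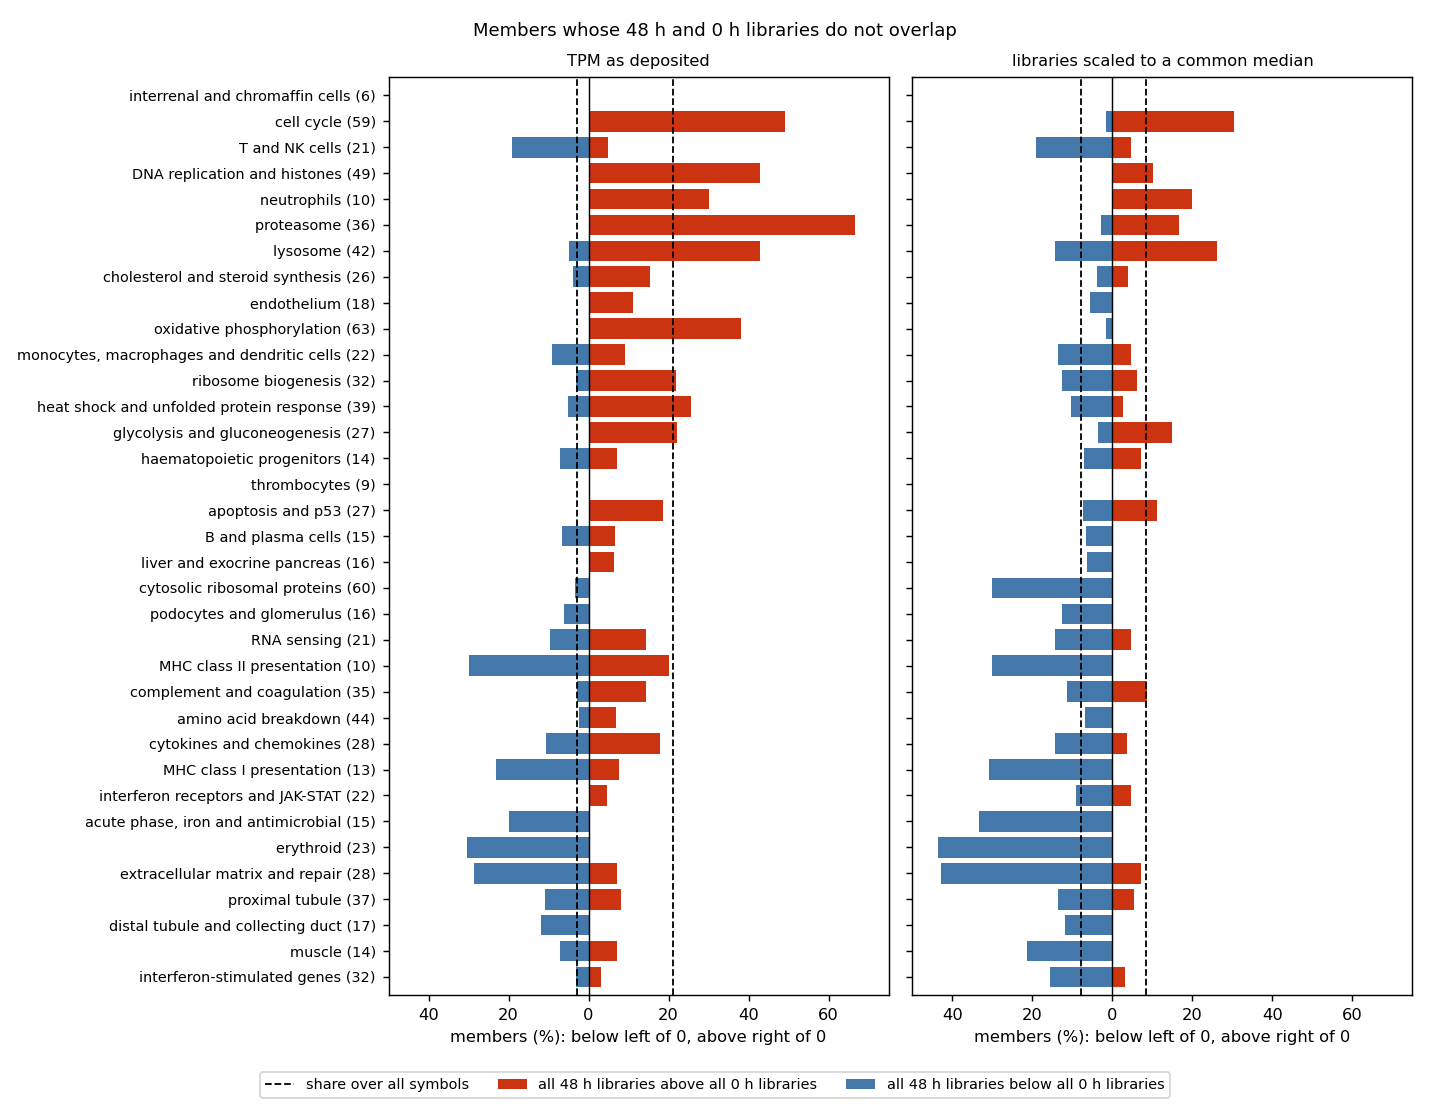
Share of measured members of each list (number in brackets) whose 3 libraries of 48 h lie all above (red, right) or all below (blue, left) the 3 of 0 h, with TPM as deposited (left panel) and after scaling to a common median (right panel). Dashed lines are the shares over all symbols, 21.2% and 2.94% on the left and 8.32% and 7.96% on the right. Cell cycle genes stand above the line in both panels, and oxidative phosphorylation in the left one only.

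Interferon-stimulated genes, the main targets of the pathway that poly(I:C) engages, held no member that passed the test. Of 32 measured, 1 had all 48 h libraries above all 0 h libraries, 1 had them all below, and 2 had a higher mean at 48 h. After median scaling 1 was above and 5 below. The list's mean level on the log2(TPM + 1) scale was 5.36, 6.62 and 6.63 in the 48 h libraries, against 7.45, 7.46 and 6.11 in the 0 h libraries. Control libraries 1 and 2 were thus above every 48 h library and near the 12 h libraries (7.20, 8.06 and 7.76), and control library 3 was within the 48 h range, as it was for 29 of the 32 genes singly. The median log2 difference was -0.87 against all controls (-1.06 after median scaling), -1.22 against control libraries 1 and 2 and 0.04 against control library 3.

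SAMHD1, which cuts down the nucleotide pool that viruses copy from, was the member above in every library, with 78.1, 142 and 136 TPM at 48 h, against 49.9, 59.4 and 29.2 TPM at 0 h (log2 fold change 1.35, SE 0.49, limma adjusted p = 0.417). RTP3, a receptor-transporting protein of a family that interferon induces in fish, was the one below, with 71.8, 153 and 148 TPM at 48 h, against 376, 399 and 167 TPM at 0 h (log2 fold change -1.31, SE 0.37, limma adjusted p = 0.409). NMI, an interferon-induced partner of IFI35, had 29.2, 45.5 and 44.7 TPM at 48 h, against 77.4, 76.5 and 44.5 TPM at 0 h, so its control library 3 lay inside the 48 h range.

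Control library 3 was also apart from the other 2 controls in several sensors and signal genes. MDA5 (IFIH1), the helicase that binds long double-stranded RNA, had 28.8, 75 and 87.0 TPM at 48 h, against 211, 204 and 58.7 TPM at 0 h. IRF7, the factor that amplifies interferon transcription, had 9.49, 18.6 and 19.3 TPM at 48 h, against 62.8, 59.4 and 12.4 TPM at 0 h, and SOCS1, the feedback inhibitor of JAK kinases, had 27.1, 71.2 and 81.1 TPM at 48 h, against 348, 352 and 37.1 TPM at 0 h. In all 3 genes control libraries 1 and 2 exceeded the 48 h libraries and control library 3 lay in their range. Of 21 RNA sensing genes 3 were above and 2 below (1 and 3 after median scaling), and of 22 interferon receptor and JAK-STAT genes 1 was above and 0 below (1 and 2). The one above was IFNGR2, a chain of the interferon gamma receptor, with 43.3, 39.9 and 41.0 TPM at 48 h, against 31.4, 29.5 and 26.1 TPM at 0 h.

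Among 28 other cytokine, chemokine and receptor genes 5 were above and 3 below (1 and 4 after median scaling). An interleukin 6 receptor feature was among the 5 above as deposited. It is short (282 nucleotides), with 17.0, 29.1 and 30.7 TPM at 48 h, against 14.15, 15.95 and 7.84 TPM at 0 h. As deposited, those below were TNF, CCR7 and the chemokine CCL20. The called interleukin-8-like feature is not counted there, since a second, more abundant interleukin 8 feature stands for that gene. That feature had 57.2, 65.4 and 118 TPM at 48 h, against 244, 241 and 84.1 TPM at 0 h, so its groups overlap (log2 fold change -1.15, limma adjusted p = 0.417). Tumour necrosis factor alpha, an early inflammatory cytokine, had 2.06, 2.88 and 4.88 TPM at 48 h, against 15.6, 14.1 and 5.72 TPM at 0 h (log2 fold change -1.53, SE 0.41, limma adjusted p = 0.409). CCR7, the receptor that guides lymphocytes and dendritic cells to lymphoid tissue in mammals, had 8.16, 7.91 and 8.14 TPM at 48 h, against 13.1, 14.7 and 12.5 TPM at 0 h. Neither gene's groups overlap. CCR7 was lower at 48 h than at 12 h (limma adjusted p = 0.0248), when it stood at 24.8, 14.7 and 19.3 TPM.

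Antigen presentation genes held no member that passed the test. The MHC class I heavy chain feature had 3921, 4286 and 3472 TPM at 48 h, against 5380, 5269 and 5138 TPM at 0 h, and beta-2-microglobulin, its light chain, had 4024, 4203 and 3988 TPM at 48 h, against 4919, 4748 and 5625 TPM at 0 h. Both were below every control library at 48 h without passing the test (log2 fold changes -0.44 and -0.32, limma adjusted p = 0.409 and 0.414). A class II beta chain feature (dab) had 552, 564 and 500 TPM at 48 h, against 838, 920 and 957 TPM at 0 h, with a log2 fold change of -0.75 (SE 0.13, limma adjusted p = 0.340). Of 13 class I pathway genes 1 was above and 3 below (0 and 4 after median scaling), and of 10 class II pathway genes 2 were above and 3 below (0 and 3).

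Of 15 acute phase, iron and antimicrobial genes 0 were above and 3 below, or 5 below after median scaling. C-reactive protein, an acute phase pattern-binding protein, had 46.9, 51.2 and 49.3 TPM at 48 h, against 133, 113 and 66.9 TPM at 0 h. A hepcidin-like feature, named for the hormone that blocks iron export, had 114, 50.8 and 79.8 TPM at 48 h, against 195, 206 and 75.97 TPM at 0 h. Its control library 3 lay inside the 48 h range. A less abundant hepcidin feature had 9.51, 16.6 and 29.8 TPM at 48 h, against 116, 116 and 34.8 TPM at 0 h. Its groups do not overlap (log2 fold change -2.14, limma adjusted p = 0.409). The bactericidal permeability-increasing protein (BPI) had 244, 371 and 353 TPM at 48 h, against 561, 533 and 415 TPM at 0 h. BPI was lower at 48 h than at 12 h (limma adjusted p = 0.0117), when its libraries held 1007, 2478 and 1774 TPM.

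The counts of the other programs stand beside 21.2% of all symbols above and 2.94% below as deposited (8.32% and 7.96% after median scaling). Among other programs, heat shock and unfolded protein genes had 10 of 39 members above and 2 below (1 and 4 after median scaling), glycolysis and gluconeogenesis 6 of 27 above and 0 below (4 and 1), ribosome biogenesis 7 of 32 above and 1 below (2 and 4), and apoptosis and p53 genes 5 of 27 above and 0 below (3 and 2). Complement and coagulation genes had 5 of 35 above and 1 below (3 and 4), cholesterol and steroid synthesis 4 of 26 above and 1 below (1 and 1), and amino acid breakdown 3 of 44 above and 1 below (0 and 3). Fructose-1,6-bisphosphatase 1, an enzyme of glucose synthesis, had 209, 192 and 186 TPM at 48 h, against 106, 120 and 118 TPM at 0 h. BHMT, which passes a methyl group from betaine to homocysteine, had 432, 308 and 138 TPM at 48 h, against 1490, 1469 and 516 TPM at 0 h. Extracellular matrix genes had 8 of 28 members below and 2 above (12 and 2 after median scaling). Decorin, a small matrix proteoglycan, had 76.1, 60.8 and 55.2 TPM at 48 h, against 113, 102 and 81.5 TPM at 0 h.

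**Figure D3:**
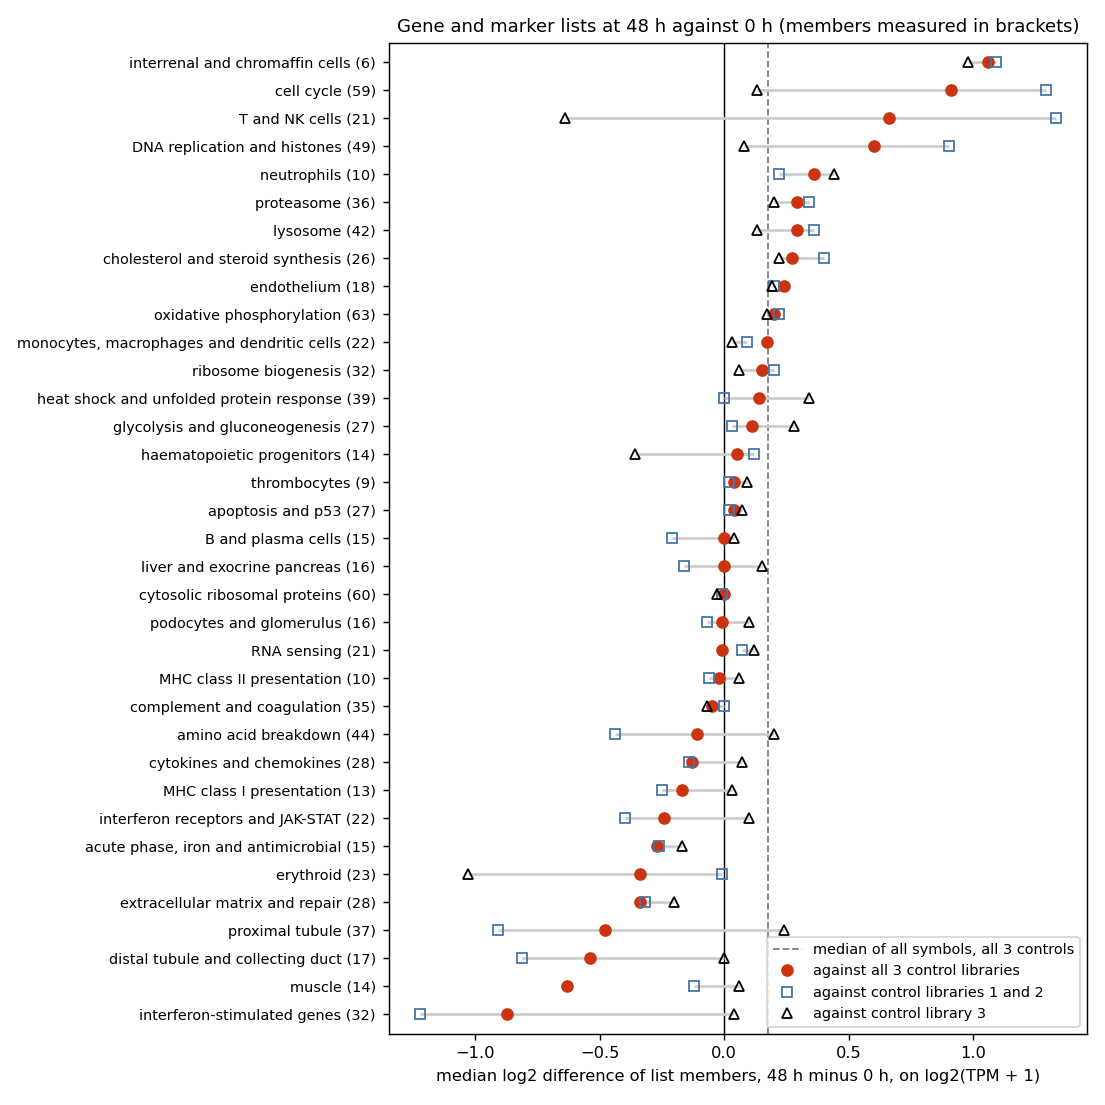
Median log2 difference (48 h minus 0 h, log2(TPM + 1)) of the measured members of 35 lists, against all 3 control libraries (filled circles), control libraries 1 and 2 (squares) and control library 3 (triangles). The dashed line is the median over all symbols against all 3 control libraries, 0.17. That median was 0.22 against control libraries 1 and 2 and 0.10 against control library 3. Cell cycle genes lie at 1.29 against control libraries 1 and 2 and at 0.13 against control library 3, and interferon-stimulated genes at -1.22 and 0.04.

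Some cell type marker lists also set control library 3 apart from control libraries 1 and 2. Others did not in their mean level. On the log2(TPM + 1) scale, control library 3 differed from the mean of those 2 by 0.05 for endothelial and -0.08 for podocyte genes. Some single members of these lists still set it apart. The endothelial marker EGFL7 had 59.08 TPM in control library 3, against 23.56 and 21.19 TPM in control libraries 1 and 2. Renin, in the podocyte list, had 1.74 TPM, against 17.86 and 14.82 TPM. PECAM1, also endothelial, did not, with 5.45 TPM, against 5.32 and 5.98 TPM. In bulk RNA, fewer cells of a type and less RNA per cell cannot be told apart. The T and NK cell list (21 measured) had mean levels of 4.23, 4.57 and 4.58 at 48 h, against 3.31, 3.35 and 4.87 at 0 h, on the log2(TPM + 1) scale, and its summed TPM spanned 561 to 674 at 48 h and 293 to 1010 at 0 h. The erythroid list (23 measured) stood at 5.58, 4.93 and 5.04 at 48 h, against 5.35, 5.43 and 6.57 at 0 h, with 4829 to 18296 summed TPM at 48 h and 20465 to 72476 at 0 h. Control library 3 was the highest of the 6 libraries for both lists. The median log2 difference of the T and NK cell list was 0.66, or 1.33 against control libraries 1 and 2 and -0.64 against control library 3. A higher mean at 48 h was found in 17 of the 21, beside 69.8% of all symbols. Only 1 was above every control library, a granzyme K-like feature, and 4 were below, under both scalings. As deposited, those below were TCF7, GATA3, CCR7 and CD28, of which GATA3 is also in the distal tubule list. The granzyme K-like feature above every control is short (209 nucleotides) and low, with 1.92, 10.3 and 9.44 TPM at 48 h, against 1.21, 0 and 0 TPM at 0 h. A more abundant granzyme K-like feature had 16.25, 37.4 and 33.7 TPM at 48 h, against 7.40, 8.47 and 16.6 TPM at 0 h, so its groups overlap. TCF7, a transcription factor of T cell development, had 13.3, 13.7 and 15.7 TPM at 48 h, against 23.1, 21.7 and 23.1 TPM at 0 h (log2 fold change -0.64, SE 0.16, limma adjusted p = 0.409). Whether these differences in cell markers bear on the gene lists above was not tested.

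Among single red cell genes, hemoglobin beta-1 had 7376, 1760 and 2774 TPM at 48 h, against 7917, 8462 and 29625 TPM at 0 h (log2 fold change -1.93, SE 0.57, limma adjusted p = 0.409). ALAS2, the first enzyme of heme synthesis in red cells, had 70.5, 29.1 and 34.5 TPM at 48 h, against 71.9, 82.7 and 162 TPM at 0 h. Both were below every control library at 48 h, as were 7 of the 23 red cell genes (10 after median scaling). Leaving out control library 3, the list's median log2 difference of -0.34 became -0.01.

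The proximal tubule list (37 measured) stood at 4.69, 4.75 and 3.99 at 48 h, against 5.35, 5.30 and 4.28 at 0 h, and the distal tubule and collecting duct list (17 measured) at 3.98, 3.89 and 3.42 at 48 h, against 4.76, 4.68 and 3.81 at 0 h. Control library 3 lay within the 48 h range of both lists. The proximal tubule median log2 difference was -0.48, or -0.91 against control libraries 1 and 2 and 0.24 against control library 3, and the distal one was -0.54, or -0.81 and -0.00. Of the proximal tubule genes 3 were above and 4 below (2 and 5 after median scaling), and of the distal genes 0 were above and 2 below under both scalings. Among the 3 proximal tubule genes above as deposited was fructose-1,6-bisphosphatase 1, also named under glucose synthesis. It had 209, 192 and 186 TPM at 48 h, against 106, 120 and 118 TPM at 0 h. Amnionless, the membrane anchor of the protein uptake receptor cubilin, had 5.81, 7.58 and 4.51 TPM at 48 h, against 17.6, 16.7 and 9.22 TPM at 0 h (log2 fold change -1.13, SE 0.27, limma adjusted p = 0.403). Inositol oxygenase (MIOX), an enzyme of renal tubules in mammals, had 0.44, 0.66 and 0.82 TPM at 48 h, against 38.2, 40.6 and 0.60 TPM at 0 h, so its control library 3 was like the 48 h libraries. A uromodulin-like feature, named for the main urinary protein of the thick ascending limb in mammals, had 14.6, 3.34 and 2.22 TPM at 48 h, against 84.2, 81.6 and 8.45 TPM at 0 h.

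Other blood cell lists also held no member that passed the test. Of 10 neutrophil genes 3 were above and 0 below (2 and 0 after median scaling), of 22 monocyte, macrophage and dendritic cell genes 2 and 2 (1 and 3), and of 15 B and plasma cell genes 1 and 1 (0 and 1). Under both scalings the counts were 0 and 0 of 9 thrombocyte genes and 1 and 1 of 14 progenitor genes. The G-CSF receptor CSF3R, which drives neutrophil production, had 86.6, 141 and 124 TPM at 48 h, against 72.3, 68.8 and 82.7 TPM at 0 h. Podocyte genes (16 measured) had 0 above and 1 below (0 and 2 after median scaling), endothelial genes (18) 2 and 0 (0 and 1), muscle genes (14) 1 and 1 (0 and 3), and liver and exocrine pancreas genes (16) 1 and 0 (0 and 1).

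Interrenal and chromaffin markers set 48 h library 3 apart from the other 48 h libraries and from the 0 h libraries. The list (6 measured of 20) stood at 1.73, 1.54 and 3.51 at 48 h, against 1.51, 1.5 and 1.26 at 0 h. At 12 h it stood at 3.0, 1.04 and 2.4, so 12 h libraries 1 and 3 were above the controls too. StAR, which carries cholesterol into mitochondria for steroid synthesis, had 0.48, 0.35 and 22.1 TPM at 48 h, against 0.46, 0.36 and 0.34 TPM at 0 h. CYP17A1, a steroid hydroxylase, had 0.34, 0.43 and 11.9 TPM at 48 h, against 0.04, 0.10 and 0.46 TPM at 0 h. The list's median log2 difference was 1.06. Over the members that still passed the filter, it was 0.30 with 48 h library 3 left out and 0.08 with 12 h library 1 or 3 left out. In each of these cases 3 of the 6 members passed the filter.

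**Figure D4:**
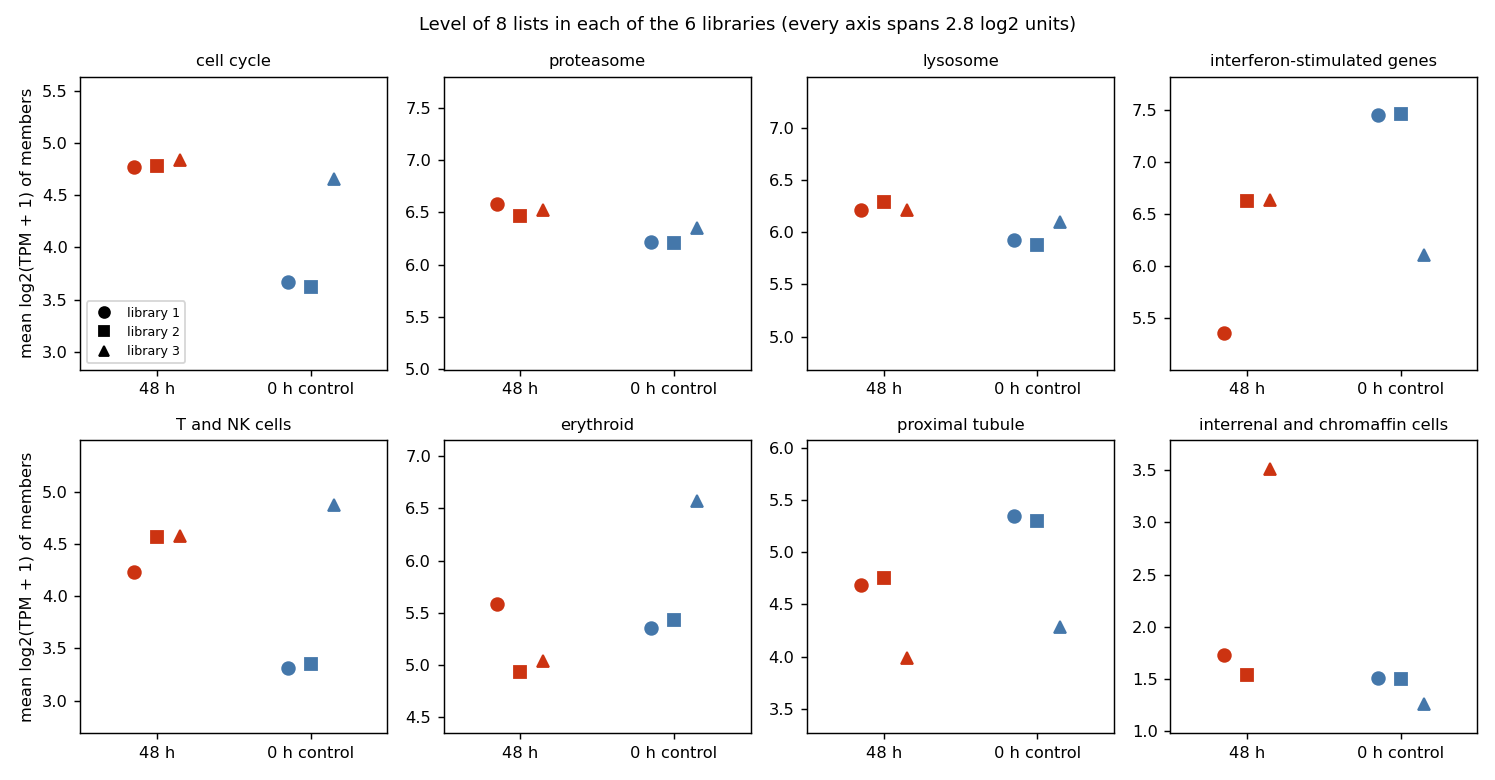
Mean log2(TPM + 1) of the members of 8 lists in the 3 libraries of 48 h (red, left) and the 3 of 0 h (blue, right); shape gives the library number, and every axis spans the same number of log2 units. Control library 3 (blue triangle) is near the 48 h libraries for cell cycle genes and within their range for interferon-stimulated and proximal tubule genes, and 48 h library 3 (red triangle) stands at 3.51 for interrenal genes.

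Some large differences that did not pass the test are given next, chosen after their values were seen. A feature matching methyl-CpG-binding protein MBD2 had 3780, 102 and 2164 TPM at 48 h, against 61.7, 83.9 and 84.1 TPM at 0 h, so 48 h library 2 was close to the controls (log2 fold change 3.62, SE 1.06, limma adjusted p = 0.409). A galectin-3-binding protein feature had 1.52, 52.6 and 28.5 TPM at 48 h, against 273, 273 and 190 TPM at 0 h. The bile salt export pump ABCB11, which moves bile salts out of hepatocytes, was low, but its groups do not overlap. It had 12.3, 9.74 and 5.21 TPM at 48 h, against 1.30, 1.27 and 0.84 TPM at 0 h (log2 fold change 2.18, SE 0.43, limma adjusted p = 0.403). Gamma-glutamyl hydrolase, which trims folate polyglutamates, had 14.6, 13.4 and 17.5 TPM at 48 h, against 121, 112 and 23.2 TPM at 0 h.

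Without control library 3, 78 of 44854 features passed the limma test, 47 higher (0.105%) and 31 lower (0.0691%) at 48 h, the 5 called with all libraries among them. Of the 78, 24 have control library 3 within the range of the 48 h libraries, beside 52.3% of all features. These shares cannot be compared, because the test favours features with a small spread at 48 h. Control library 3 can also lie outside that range on the side away from control libraries 1 and 2. The control group then consists of the 2 nearly alike libraries. With those averaged as 1 library and 12 h library 3 also left out, limma called 0 features (2801 had an unadjusted p under 0.05). That fit has 1 control, assumed to vary like the libraries of the other groups, so it has little power and 0 calls says nothing of these features. The features below were chosen after their values were seen and are given as values. A C-C motif chemokine 13-like feature had 83.9, 139 and 100 TPM at 48 h, against 3439, 3867 and 50.2 TPM at 0 h. A C-C motif chemokine 18-like feature went the other way, with 184, 265 and 389 TPM at 48 h, against 6.88, 5.37 and 486 TPM at 0 h. Chemokines of this family attract leukocytes, and in both features control library 3 was on the side of the 48 h libraries. Perforin-1, the pore-forming protein of cytotoxic lymphocytes, had 102, 128 and 100 TPM at 48 h, against 25.3, 24.8 and 198 TPM at 0 h, and the interleukin-7 receptor alpha chain, needed for lymphocyte survival, had 31.2, 36.8 and 37.1 TPM at 48 h, against 8.55, 8.03 and 79.6 TPM at 0 h.

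**Figure D5:**
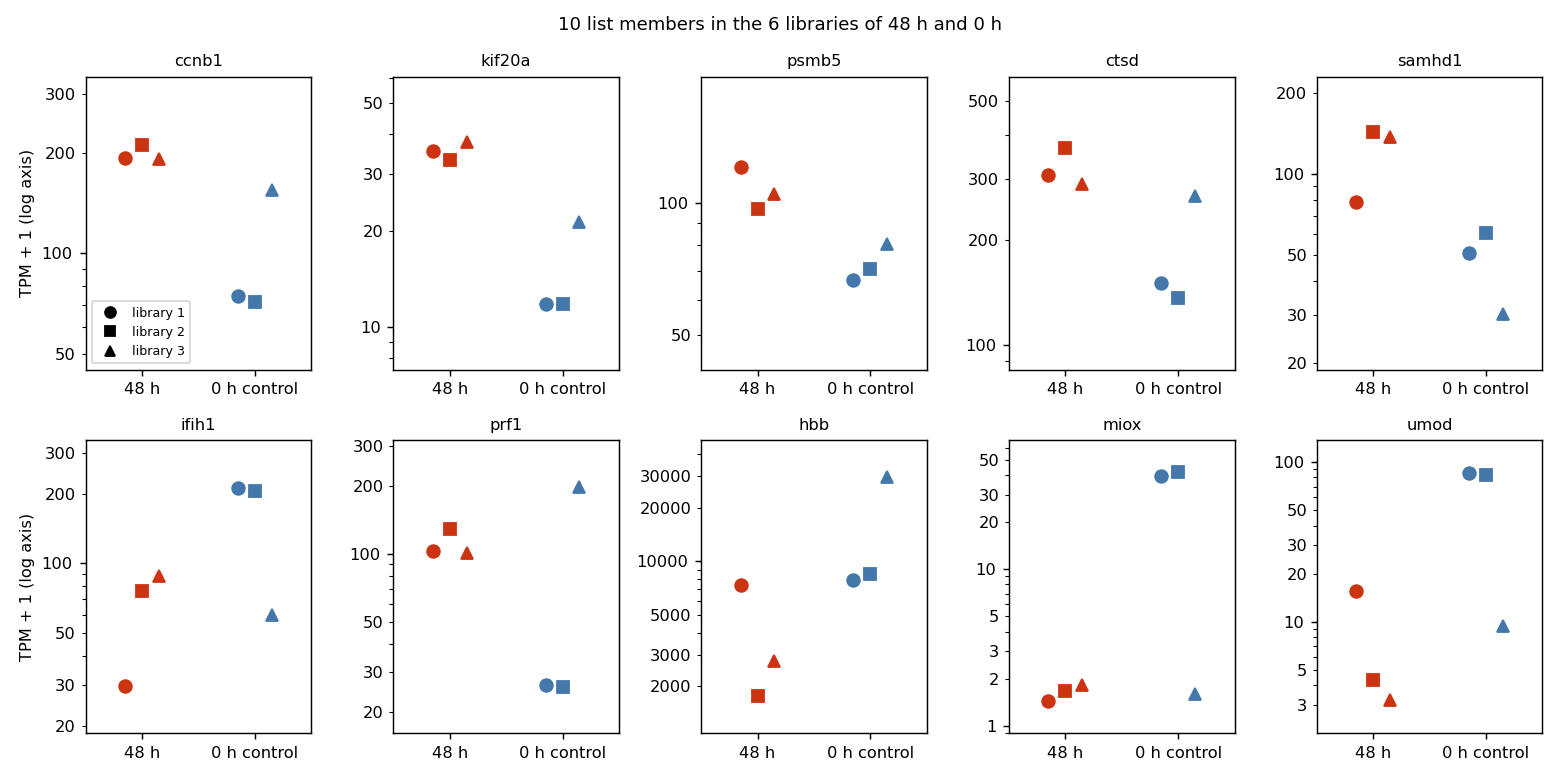
TPM + 1 on log axes of 10 list members in the 3 libraries of 48 h (red, left) and the 3 of 0 h (blue, right), with shapes for the library number. Cyclin B1, KIF20A, PSMB5, cathepsin D and SAMHD1 have all 48 h libraries above all 0 h libraries. Hemoglobin beta-1 (hbb) has them all below. Control library 3 is far from the other controls in MDA5 (ifih1), perforin-1 (prf1), hbb, MIOX and uromodulin. In cyclin B1, KIF20A, PSMB5 and cathepsin D it lies between the other controls and the 48 h libraries, and in SAMHD1 it is the lowest control.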

How the data were processed

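Kidney RNA-seq libraries were grouped by their labels (3 at 0 h, 3 at 12 h, 3 at 48 h after poly(I:C)). The authors deposited 1 table of 46444 features with TPM values per library, taken as TPM because the columns total 993873 to 996068. Feature IDs carry the word Trinity. The assembler's settings, aligner, quantifier and versions are not given in the sources used here. Depth was inferred from the steps between low values, as counts were not given (94.7% to 97.8% of low values lay within 0.1 of a whole read), and precision is limited to the spread of 3 libraries a group.

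Features of at least 1 TPM in 3 libraries were fitted as log2(TPM + 1) with limma 3.58.1 in R 4.3.3 (eBayes with trend and robust, 3 groups, no block), two-sided, with Benjamini-Hochberg adjustment over all features, and checked on simulated data. Fold changes on this scale understate those of low features. The simulated libraries were independent of each other, so that check does not cover the likeness of control libraries 1 and 2. Symbols come from fish descriptions, so one can stand for a paralogue, and the most abundant feature stands for a symbol. Members, lists and naming rule were chosen with earlier results of these data known. Named features are up to 4 members of each list by smallest adjusted p, the largest and most abundant calls, up to 1 unnamed feature each way, and defining markers; others are said to have been chosen after their values were seen. A gene that this rule also selects is not reported here. Alternatives were other pseudocounts, filters, scalings, eBayes options, subsets of libraries and features, and a replicate block. The fit on the 2 groups without control library 3, and 2 fits with control libraries 1 and 2 averaged and 12 h library 3 left out, were chosen after seeing the data.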

Additional observations from a re-analysis of the deposited data

How the results depend on the processing

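The 5 features called at 48 h against 0 h (4 higher, 1 lower) stayed 5 without the filter, with a filter of 5 TPM, with quantile or median scaling, with control libraries 1 and 2 averaged, and when a log2 change of 1 or more either way was also required. The count was 3 with a pseudocount of 0.1 (2 higher) and at an adjusted p under 0.01 (2 higher), 4 with only the 0 h and 48 h libraries and with fish-matched features only, 2 with features summed by description (1 higher), and 0 (0 higher, 0 lower) without trend and robust options, when 4463 features had an unadjusted p under 0.05. With the pseudocount of 0.1, the septin-1-like and unmatched features did not pass (limma adjusted p = 0.192 for each). With only the 0 h and 48 h libraries, 3 of the 4 calls were among the 5 features. There the S15 and unmatched features did not pass (limma adjusted p = 0.082 and 0.422). Leaving out 1 library gave 0 to 78 calls (0 to 47 higher, 0 to 31 lower). Chosen after seeing the data, the fit of 0 h and 48 h without control library 3 gave 889 calls (696 higher, 193 lower), and both fits with control libraries 1 and 2 averaged and 12 h library 3 left out, with and without control library 3, gave 0 (0 higher, 0 lower). Without control library 3 that fit has 1 control, assumed to vary like the other groups. The cause was not tested. No list member was called under the alternatives, with 2 exceptions. Without control library 3, 15 in 11 lists were called, beside 78 of all 44854 features. When the 12 h libraries were left out as well, 120 in 25 lists were called, beside 889 of all features. A gene held by several lists counts in each. These counts are not shares, so they do not show whether list members were called more often than other features. That was not tested. No feature named here had a called direction that turned round. With the replicate number as a block 3 features were called (3 higher, 0 lower). The labels do not say whether the numbers pair libraries. Deviations of same-numbered 48 h and 0 h libraries from their group means correlated at -0.13, 0.21 and 0.17. With 3 libraries a group such deviations depend on each other, so these values cannot decide whether libraries were paired.

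TPM values keep no count, and 3 libraries a group, with 1 control apart from the other 2 and those 2 nearly alike, leave few independent values behind each comparison. Differences that did not pass were not detectable with this spread, which does not show that they are absent. Short features, shared names and paralogues limit what a symbol stands for. Controls were taken at 0 h alone.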
